A study of Mus musculus with 2 samples.

Results

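Nuclear receptors and the coregulators that work with them were taken from the array by gene name, in both cell preparations of the study. The name pattern took Nr0 to Nr6 receptors other than Nr4a genes, estrogen and estrogen-related receptors, ROR, PPAR, thyroid hormone, vitamin D and progesterone receptors, and the Ncoa, Ncor and Pgc-1 (Ppargc1) coregulators. It selected 75 probes for 46 genes, of 15208 non-control probes for 11142 genes. One of the 46, Esrp2, encodes an RNA splicing regulator and matches by its letters only.

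The busulphan preparation came from male Swiss mice aged 3 months, 1 month after 25 mg/kg body weight of busulphan, an alkylating agent that kills dividing germ cells. The control preparation came from untreated males of the same strain and age. Both are labelled as isolated Sertoli cells, the supporting cells of the seminiferous tubule, which were collected from a strainer after enzyme digestion and were not cultured. Each group was 1 preparation on 1 single-colour array, and the labels used here do not say how many mice each held, so no difference has a replicate check, no p-value is given, and all directions compare these libraries only.

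Nuclear receptors are transcription factors that bind DNA through zinc fingers and, in many cases, a small lipid-soluble ligand through a second domain. Many recognise the hexamer AGGTCA, called a half-site, alone or as a repeat bound by a dimer. Without ligand several of them hold corepressors of the Ncor family, which carry histone deacetylases, and with ligand they exchange these for Ncoa coactivators, which carry or recruit histone acetyltransferases. In the testis, Sertoli cells respond to androgen, retinoic acid and thyroid hormone, Leydig cells make steroids under the control of Nr5a1, and orphan receptors such as Nr6a1 and Nr2c1 are known from germ cells.

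The promoters of the genes furthest from 0 that RefSeq's table holds are printed here to show what lies at their start sites. Each runs from 250 bases before to 50 bases after the start on build GRCm38.p6, 5′ to 3′ on the gene's strand, with AGGTCA or its reverse complement TGACCT in capitals. The first pair belongs to genes higher in the busulphan library and the second pair to genes lower there.
Vdr, chr15:97908247-97908546, minus strand: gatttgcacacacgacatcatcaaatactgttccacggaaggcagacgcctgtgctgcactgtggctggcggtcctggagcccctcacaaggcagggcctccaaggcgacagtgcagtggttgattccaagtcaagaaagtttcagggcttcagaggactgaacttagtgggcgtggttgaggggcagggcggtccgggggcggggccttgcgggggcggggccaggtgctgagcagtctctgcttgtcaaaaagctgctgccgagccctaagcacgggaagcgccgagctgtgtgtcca
Nr0b1, chrX:86191525-86191824, plus strand: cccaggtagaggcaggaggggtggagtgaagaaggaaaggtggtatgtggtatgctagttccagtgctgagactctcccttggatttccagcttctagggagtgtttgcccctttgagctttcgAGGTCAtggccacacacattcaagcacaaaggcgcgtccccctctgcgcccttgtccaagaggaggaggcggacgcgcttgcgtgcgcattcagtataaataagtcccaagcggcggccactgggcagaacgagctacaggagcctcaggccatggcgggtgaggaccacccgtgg
Nr2c1, chr10:94147681-94147980, plus strand: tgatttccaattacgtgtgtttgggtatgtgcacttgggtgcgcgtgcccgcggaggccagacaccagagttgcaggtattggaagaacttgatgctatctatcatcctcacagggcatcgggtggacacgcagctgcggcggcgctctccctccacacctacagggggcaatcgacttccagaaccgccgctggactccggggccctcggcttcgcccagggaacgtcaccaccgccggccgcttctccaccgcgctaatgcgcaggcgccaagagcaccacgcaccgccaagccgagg
Nr6a1, chr2:38784466-38784765, minus strand, the downstream of its pair of starts: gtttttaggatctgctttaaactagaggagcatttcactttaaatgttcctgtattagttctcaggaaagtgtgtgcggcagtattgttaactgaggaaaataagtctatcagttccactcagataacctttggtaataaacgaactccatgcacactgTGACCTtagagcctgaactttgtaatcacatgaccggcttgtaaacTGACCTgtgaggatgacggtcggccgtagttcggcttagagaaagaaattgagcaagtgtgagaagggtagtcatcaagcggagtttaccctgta
The half-site stands once in the Nr0b1 window, 126 bases before the start. It stands at 2 places in the printed Nr6a1 window, 91 and 45 bases before the start. The window of the other Nr6a1 start, chr2:38926412-38926711, is not printed and holds no half-site. The Vdr and Nr2c1 windows do not hold these letters, and the Vdr window holds the GC box GGGCGG, read on both strands, 3 times. Over the 37 members with an entry, AGGTCA on either strand was in 10 of 53 promoters (18.9%), against 16.3% of all 32851 promoters in the table. A match of letters is a description and shows no binding.

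Several members were read by probes of 60 bases whose ends lie further apart in the genome than their length, so that the probe spans an exon junction. They are printed because results below turn on them. Their positions are those of the files on mm9 and their letters are as deposited, with no base marked.
Nr2c1, chr10:93650999-93653388: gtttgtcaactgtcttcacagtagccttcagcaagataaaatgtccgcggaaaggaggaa
Ncor1, chr11:62131484-62132878: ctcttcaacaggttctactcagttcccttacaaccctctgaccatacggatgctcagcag
Nr1d1, chr11:98630526-98631028: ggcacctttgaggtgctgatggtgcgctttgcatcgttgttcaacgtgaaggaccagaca
Ncoa2, chr1:13139131-13140771: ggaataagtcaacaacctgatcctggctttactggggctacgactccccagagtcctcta
Ncoa3, chr2:165893107-165893852: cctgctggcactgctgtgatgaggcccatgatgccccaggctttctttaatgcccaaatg
For the other probes the files give a position and no exon or untranslated region, which was not determined here.

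Levels are given as a scaled signal, the probe's processed signal in percent of the 75th percentile of the same array, which was 905 on the busulphan array and 1046 on the control array. Each gene is represented by its brightest probe, and log2 ratios are busulphan minus control. For a single spot the files hold no error other than the software's, which came to a median of 0.20 on the log2 ratios of the members. A member was counted as higher or lower at a ratio of 2-fold or more. Of the array's probes, 79.3% on the busulphan array and 80.9% on the control array were well above background. The number of arrays limits the precision.

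Against the label, both libraries held RNA of other cells. Sertoli cell markers were higher in the busulphan library for 20 of 23 genes compared and lower for none. Their median log2 ratio was 3.20 and the scaled signals of all their probes summed to 32459% in busulphan and 4391% in control. The busulphan spots of Clu (7516%) and Ctsl (8002%), part of that sum, were saturated, and the median is the lower limit that Clu gave. All 14 spermatid markers compared were lower, with sums of 6415% in busulphan and 78045% in control, and the control spots of 8 of them were saturated. Of 19 spermatocyte markers 16 were lower, with sums of 6114% in busulphan and 43025% in control. Spermatogonia markers were higher for 7 of 16 and lower for 2, with sums of 3772% in busulphan and 1301% in control. Their median was 0.49, or -0.39 when the arrays were scaled to spike-in controls. Macrophage markers counted 13 higher and 2 lower of 18 (median 3.01), although their sums were 1142% in busulphan and 8384% in control, with 5996% of the control sum from the saturated spot of Aif1. A second Aif1 probe, also much lower in busulphan (log2 -5.88), is part of the same sums. Leydig cell markers were higher for 6 of 13 and lower for 1, with sums of 2674% in busulphan and 869% in control. The part of these mixtures in the results below was not tested, and in bulk RNA fewer cells of a type and less RNA per cell cannot be told apart.

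Of the 46 genes, 40 had a probe well above background on at least 1 array and could be compared. In the busulphan library 17 of these (42.5%) were higher, where 31.3% of all 9441 genes compared were, and 10 (25%) were lower, where 29.5% of all genes were. The other 13 lay within 2-fold, and over all genes 60.8% were either higher or lower. Their median log2 ratio was 0.27 against 0.07 over all genes, and it turned to -0.087 when the arrays were scaled to housekeeping genes and to -0.43 when they were scaled to spike-in controls. Spike-in scaling moved the median of all genes to -0.81 and housekeeping scaling to -0.35, and under spike-in scaling 8 of the 40 members were higher and 15 lower, where 16.1% and 46.4% of all genes were. The members spread about as widely as the array as a whole, with an SD over genes of 1.85 against 2.10. The 30 receptors had 14 higher and 8 lower, and the 9 coregulators had 2 higher and 2 lower. Esrp2, the remaining name match, had 4.13% in busulphan and 1.49% in control (1.47), and without it 16 of 39 were higher and 10 lower.

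**Figure D1:**
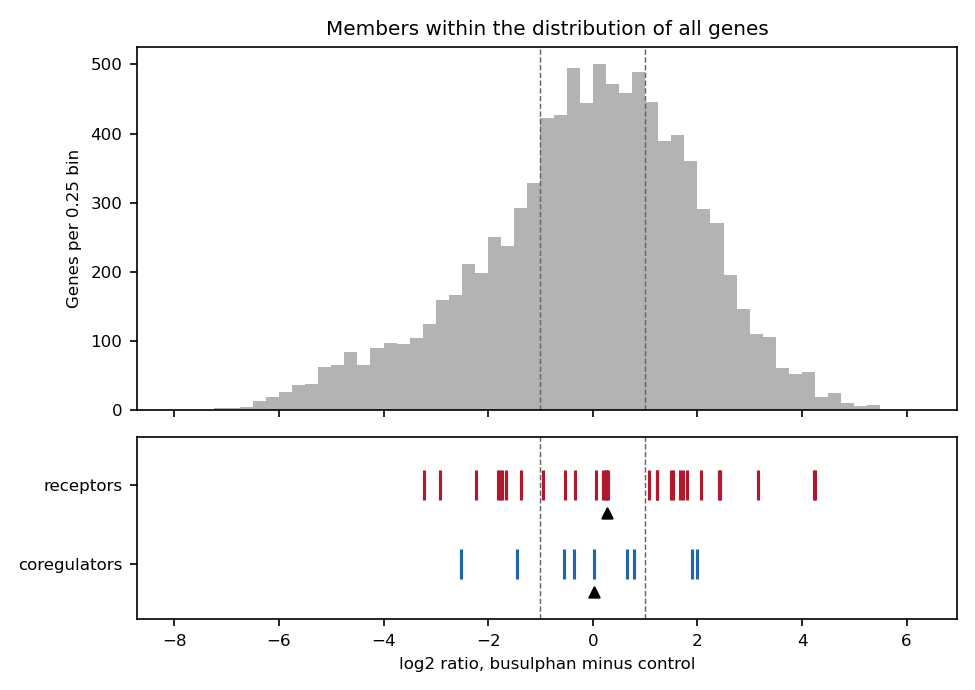
The upper panel is a histogram of the log2 ratio (busulphan minus control) of all 9441 genes compared, and the lower panel marks each of the 30 receptors and 9 coregulators, with a triangle at each group's median. Dashed lines mark 2-fold, and the members run from -3.22 to 4.24 inside the range of all genes.

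The receptors for vitamin D, thyroid hormone and the ROR and REV-ERB ligands had a median of 1.81, which lay between 0.92 and 1.98 over the other scalings and the normexp background correction, counted together as scalings from here on. Of 7 genes compared, 5 were higher and 1 lower, and with spike-in scaling 3 were higher and 1 lower. For this and the groups and lists below, the shares over all genes were 31.3% higher and 29.5% lower. With spike-in scaling those shares were 16.1% and 46.4%. Vdr, the vitamin D receptor, had a scaled signal of 272% on the busulphan array and 14.4% on the control array, an 18.9-fold difference (log2 4.24, software error 0.20) that ranked 71st from the top of all genes. Its probe lies at chr15:97685136-97685195 of mm9. This was the highest ratio of all 40. Rora, which activates clock genes, was lower, at 67.6% in busulphan and 214% in control (log2 -1.66), and its other probe gave 47.1% in busulphan and 143% in control (-1.60). Its relative Rorb was not well above background with either probe on either array.

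Nr1d1 and Nr1d2 encode REV-ERB alpha and beta, repressors of the circadian clock that compete with ROR proteins for the same DNA sites. Nr1d2 had 96.2% in busulphan and 27.5% in control (log2 1.81), and 0.92, within 2-fold, with spike-in scaling. Nr1d1 had 131% in busulphan and 45.5% in control by the junction probe printed above (log2 1.53), while a second probe gave 7.46% in busulphan and 4.39% in control (0.77) and another 3.11% in busulphan and 2.82% in control (0.14). The size of the Nr1d1 difference thus depended on the probe, although all 3 probes were above 0. With the median over its probes, and with spike-in scaling, it lay within 2-fold. Thra, thyroid hormone receptor alpha, whose probe lies 4.1 kb from that of Nr1d1 on the other strand, had 232% in busulphan and 196% in control (log2 0.25, with 0.30 by its other probe). Thyroid hormone receptor beta, Thrb, was dim, at 4.89% in busulphan and 1.16% in control (log2 2.08, software error 0.29). A second Thrb probe gave 1.20% in busulphan and 1.104% in control (0.12), and another was not well above background in busulphan and 2.81% in control, at least 4.07-fold lower. Probes of Thrb therefore did not share a direction, and the gene lay within 2-fold with normexp background correction or with the median over its probes.

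**Figure D2:**
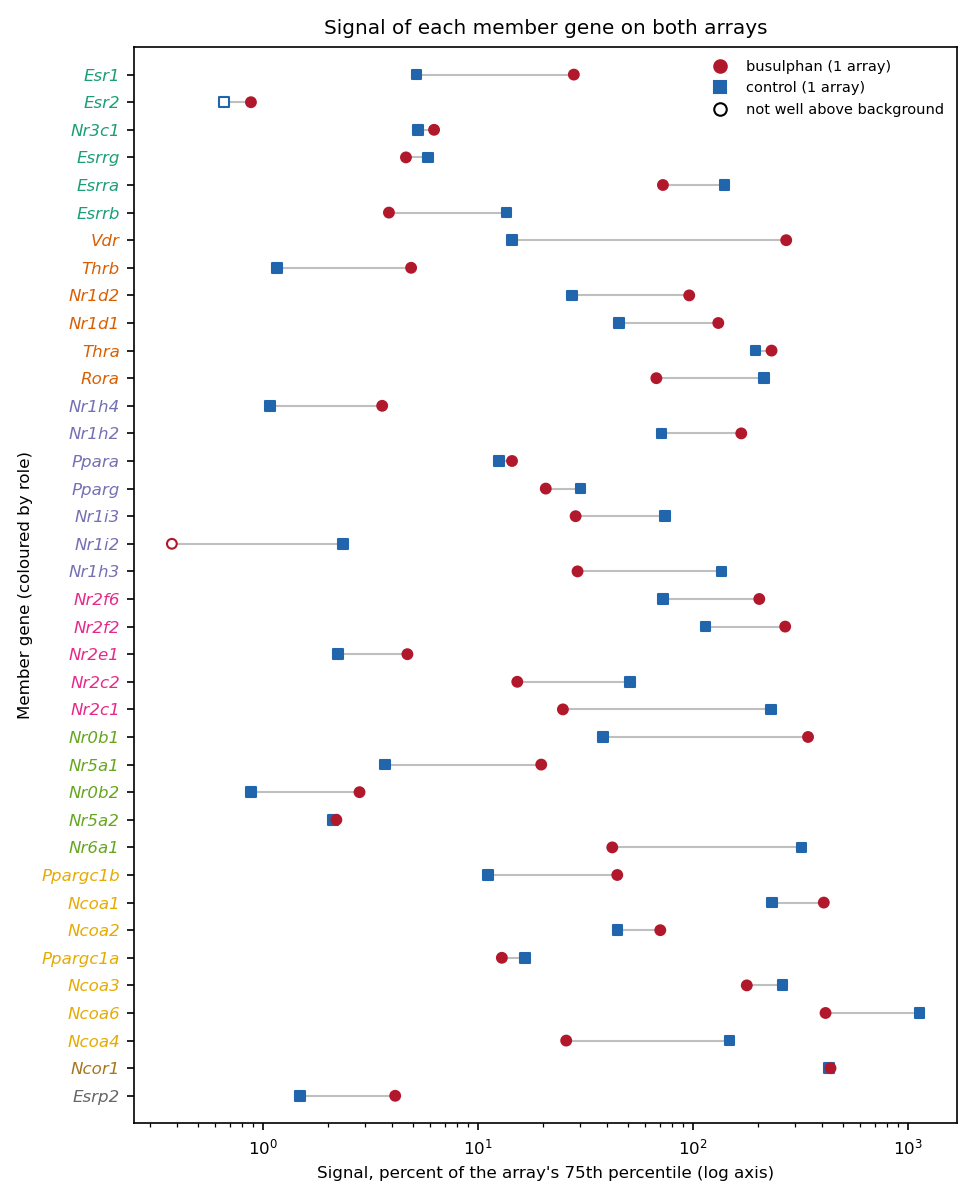
Scaled signal of 38 of the 40 genes compared, in percent of the array's 75th percentile on a log axis, with the busulphan array as circles, the control array as squares and open symbols where a spot was not well above background. Vdr shows the widest gap to the right for busulphan, and Nr2c1 and Nr6a1 the widest to the left.

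Genes around these receptors were taken from lists. Of 16 circadian clock genes compared, 8 were higher and 0 lower, and with spike-in scaling 4 and 1. Their median was 0.97 and lay between 0.09 and 1.15 over the scalings. Nfil3, a repressor of the D-box, had 372% in busulphan and 57.7% in control (log2 2.69), and the repressor Bhlhe40 had 540% in busulphan and 85.0% in control (2.67). The lowest in that list were Per1 at -0.32 and Cry1 at 0.24, parts of the core negative limb. Arntl, a direct target of REV-ERB and ROR that was singled out after its value was seen, had 47.0% in busulphan and 25.7% in control (0.87). In the retinoic acid and vitamin D target list 2 of 10 were higher and 1 lower. With quantile normalization 4 were higher and 1 lower. The median was 0.78, and -0.069 when spike-ins set the scale, where 1 was higher and 2 lower. The calcium channel Trpv6 was lowest, at 2.28% in busulphan and 5.15% in control (-1.18). Cyp27b1, the enzyme that makes active vitamin D, was at -0.20. Thyroid hormone pathway genes had 3 of 9 higher and 1 lower. Their median was -0.26, and 0.32 under another scaling, and with spike-in scaling 2 were higher and 5 lower. Crym, a cytosolic binder of thyroid hormone, had 86.2% in busulphan and 4.01% in control (4.43), the corepressor Hr was at -1.93 and the deiodinase Dio1 at -0.43.

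Steroid receptors and the estrogen-related receptors did not share a direction. Of 6 genes compared 1 was higher and 1 lower, and the median of -0.05 reached 0.13 and -0.93 under other scalings. Esr1, estrogen receptor alpha, had 28.0% in busulphan and 5.18% in control by its brightest probe (log2 2.43, 5.39-fold). Its other probe was not well above background in busulphan and had 4.62% in control, at least 6.68-fold lower. These probes lie at chr10:5343056-5343115 and chr10:5345046-5345105 of mm9 and were designed on the same transcript record. The median over both was -0.15, so the direction of Esr1 rested on the choice of probe. Esr2, estrogen receptor beta, was 0.88% in busulphan, against a control spot that was not well above background, at least 1.23-fold higher. Nr3c1, the glucocorticoid receptor, had 6.26% in busulphan and 5.27% in control (0.25), with 5.61% in busulphan and 2.28% in control by its other probe (1.30). The progesterone receptor Pgr was not well above background on either array. Among the estrogen-related receptors, which act without a known natural hormone on genes of energy metabolism, Esrrb had 3.86% in busulphan and 13.6% in control (-1.82), Esrra 72.6% in busulphan and 140% in control (-0.95) and Esrrg 4.63% in busulphan and 5.86% in control (-0.34). All of them were below 0 under every alternative tried, while Esrrb came within 2-fold with normexp background correction (-0.97) and Esrra passed 2-fold under 4 alternatives.

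Target lists of these receptors went different ways. Of 18 glucocorticoid target genes 13 were higher and 0 lower, and with spike-in scaling 6 and 2. The median was 1.65 (0.77 to 1.83 over the scalings), beside a receptor within 2-fold by its brightest probe. Cebpb, a transcription factor of stress and inflammation, had 627% in busulphan and 100.5% in control (2.64), and the kinase Sgk1 had 1025% in busulphan and 167% in control (2.62). The metallothionein Mt1 was at -0.50. Of 12 estrogen-linked genes 5 were higher and 3 lower, and the median was 0.38. When spike-ins set the scale 4 were higher and 5 lower and the median was -0.50, while normexp correction left 5 higher and 1 lower. Hsd17b1, which makes estradiol, had 26.3% in busulphan and 1.40% in control (4.23), the growth regulator Myc was at 3.09, Hsd17b2, which inactivates estradiol, had 1.22% in busulphan and 12.5% in control (-3.36), and the aromatase Cyp19a1 had 1.26% in busulphan and 8.20% in control (-2.70). Of 22 ERR and PGC-1 mitochondrial target genes 2 were higher and 10 lower. The counts moved with the scale, to 2 higher and 3 lower with quantile normalization and to 1 and 18 with spike-in scaling. The median of -0.89 stayed below 0 under all scalings tried, and 1 of the 22 is Esrra itself. The creatine kinase Ckmt2 had 8.02% in busulphan and 273% in control (-5.09) and the mitochondrial fusion protein Mfn2 was at -2.25. Cytochrome c, Cycs, had 2263% in busulphan and 380.0% in control (2.57), and malate dehydrogenase Mdh2 was at 1.76.

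**Figure D3:**
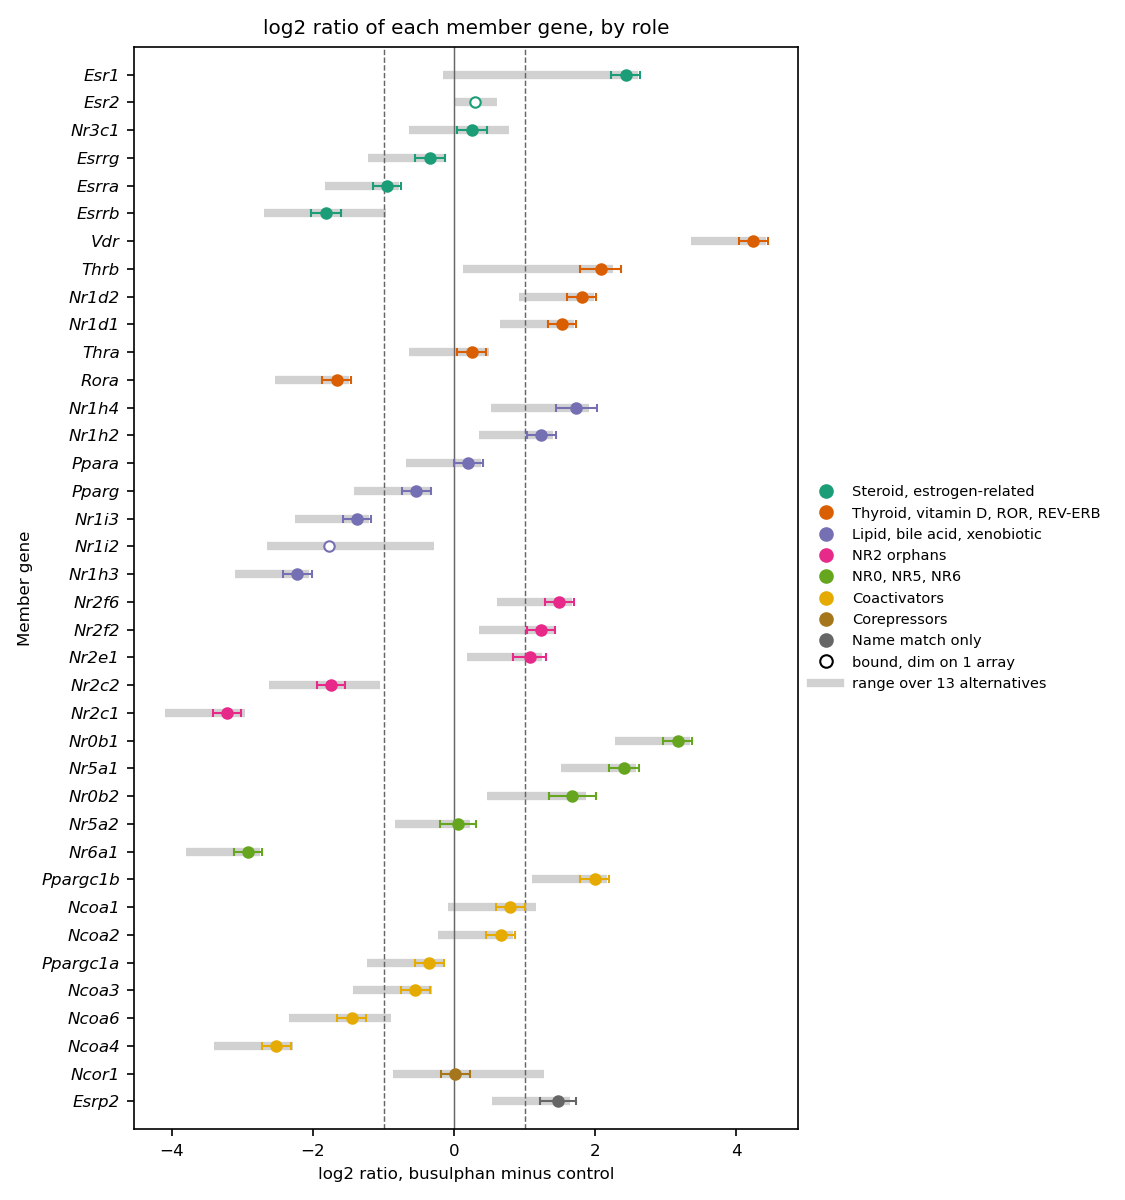
log2 ratio (busulphan minus control) of 38 of the 40 genes, coloured by role, with whiskers for the scanner software's error, open points for bounds and grey bars for the lowest and highest value over the alternatives tried. Dashed lines mark 2-fold. The grey bar of Esr1 crosses 0, while those of Vdr, Nr0b1, Nr2c1 and Nr6a1 stay beyond 2-fold.

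Sensors of lipids, bile acids and foreign compounds were mixed, with 2 of 7 higher and 3 lower, or 0 and 4 with spike-in scaling. Their median of -0.54 stayed below 0 under every scaling tried. The LXR pair, which senses oxysterols and drives cholesterol export, split. Nr1h3, LXR alpha, had 29.1% in busulphan and 136% in control (log2 -2.22, 4.67-fold), with a probe at chr2:91024435-91024494. Nr1h2, LXR beta, had 168% in busulphan and 71.4% in control (1.23), which fell within 2-fold when housekeeping genes or spike-ins set the scale. Nr1h4, the bile acid receptor FXR, was dim at 3.59% in busulphan and 1.08% in control (1.73), and lay within 2-fold with normexp correction or spike-in scaling. Both xenobiotic receptors had a lower signal in busulphan. Nr1i3, known as CAR, had 28.5% in busulphan and 74.0% in control (-1.38), and Nr1i2, known as PXR, was not well above background in busulphan and had 2.36% in control, at least 3.41-fold lower, although normexp correction put it within 2-fold (-0.28). PPAR alpha, which drives fatty acid oxidation, had 14.4% in busulphan and 12.5% in control (Ppara, 0.20). Pparg, which drives fat storage, had 20.7% in busulphan and 30.0% in control (-0.54), and Ppard and Nr1h5 were not well above background on either array.

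Lipid targets contained both directions. Of 16 LXR and SREBP1 target genes, 1 of them Nr1h3 itself, 10 were higher and 5 lower, and with spike-in scaling 5 and 5. The median was 1.51 (0.63 to 1.68 over the scalings). The desaturase Scd2 had 2735% in busulphan and 150.2% in control (4.19), and the cholesterol exporter Abca1 had 304% in busulphan and 37.5% in control (3.02). The sterol transporter Abcg5 had 1.97% in busulphan and 14.4% in control (-2.87), and the LXR-responsive phosphodiesterase Smpdl3a was at -2.61. Of 30 PPAR target genes 13 were higher and 8 lower, and the median was 0.31. When spike-ins set the scale, 5 were higher and 13 lower and the median was -0.57. Cpt1a, which admits fatty acids to mitochondria, had 568% in busulphan and 67.9% in control (3.06), and the dehydrogenase Acadl was at 2.40. Acsl1, an acyl-CoA synthetase, had 57.5% in busulphan and 3982% in control (-6.11), with probes between -6.37 and -1.67. The adipocyte hormone Adipoq had 4.31% in busulphan and 99.9% in control (-4.54).

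Orphan receptors of the Nr2 subfamily separated by branch. Nr2c1, known as TR2, had 24.9% in busulphan and 231% in control (log2 -3.22, 9.31-fold), the lowest ratio of the 40 genes. The junction probe printed above gave 14.5% in busulphan and 167% in control (-3.52, 11.51-fold). The remaining Nr2c1 probe, designed on a cDNA clone and lying 5′ of these at chr10:93613027-93613086, went the other way with 5.16% in busulphan and 2.37% in control (1.12). Nr2c2, known as TR4 and needed for normal spermatogenesis in mice, had 15.3% in busulphan and 51.1% in control (-1.74), and its clone probe had 15.7% in busulphan and 20.0% in control (-0.35). Both genes stayed at least 2-fold lower under each of the 13 alternatives that give 1 value per gene. The COUP-TF relatives were higher, but not with spike-in scaling. Nr2f2, COUP-TFII, which marks Leydig cell precursors and other interstitial cells, had 269% in busulphan and 114% in control (1.23), with 164% in busulphan and 69.4% in control by a second probe (1.24) and a dim clone probe at -0.23. It lay within 2-fold when housekeeping genes or spike-ins set the scale. Nr2f6, a repressor also known as EAR2, had 204% in busulphan and 72.5% in control (1.49), within 2-fold with spike-in scaling. Nr2e1, a brain receptor known as TLX, was dim at 4.70% in busulphan and 2.24% in control (1.07), and 5 alternatives put it within 2-fold. Nr2f1 and Nr2e3 were not well above background on either array.

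Receptors of the gonads and germ cells held large differences of both signs. Of 5 genes compared 3 were higher and 1 lower, and with spike-in scaling or normexp correction 2 and 1. The median was 1.67 (0.47 to 1.86 over the scalings), which is the value of Nr0b2, a dim gene. Nr0b1, known as DAX1, a receptor-like repressor of Nr5a1 found in Sertoli and Leydig cells, had 343% in busulphan and 38.2% in control (log2 3.17, 8.99-fold), with a probe at chrX:83441169-83441228. Nr5a1, SF-1, the regulator of steroid synthesis and gonad formation, had 19.7% in busulphan and 3.71% in control (2.41, 5.31-fold), with a probe at chr2:38549021-38549080. Its relative Nr5a2, known as LRH-1, was dim and level, at 2.20% in busulphan and 2.12% in control (0.05). Nr0b2, the repressor SHP, was dim too, at 2.82% in busulphan and 0.883% in control (1.67), and lay within 2-fold with normexp correction or spike-in scaling. Nr6a1, germ cell nuclear factor, which is known from meiotic and haploid germ cells, had 42.2% in busulphan and 320% in control (-2.92, 7.58-fold), with a probe at chr2:38579388-38579447. The Nr6a1 probe lies 30.3 kb from that of Nr5a1 on the same strand, so that neighbouring receptor genes stood on opposite sides of 0. Besides Thra and Nr1d1, described above, the other neighbours within 250 kb were Nr1d2 and Thrb, 167.8 kb apart and both higher by their brightest probes.

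The list of SF-1 and LRH-1 targets, which mixes steroid enzymes with gonadal hormone and receptor genes, had 8 of 15 higher and 1 lower. With spike-in scaling 6 were higher and 4 lower, and with normexp correction 5 and 0. The median was 1.21 (0.32 to 1.38 over the scalings), and 2 of the 15, Nr0b1 and Nr0b2, are described above. The steroid enzymes Cyp11a1 (0.11), Cyp17a1 (-0.24), Hsd3b1 (0.48) and Hsd3b6 (-0.49), singled out after their values were seen, lay within 2-fold. Star and Scarb1 of the same list, singled out in the same way, were higher. Star had 226% in busulphan and 19.3% in control (3.55, with 3.73 by its other probe), and Scarb1 was at 1.89. Akr1b7, an aldose reductase of steroid-making cells, had 20.5% in busulphan and 1.15% in control (4.16), and Inha, the inhibin alpha subunit that Sertoli cells secrete, had 94.9% in busulphan and 7.67% in control (3.63). Aromatase, Cyp19a1, was the 1 lower gene. Fdx1, the electron donor of side-chain cleavage, was at -0.86 by its brightest probe and 1.33 by another. Leydig cell markers, with Nr5a1 among them, had a median of 0.48 beside these values, or -0.40 when spike-ins set the scale. The part of Leydig cell RNA in the Nr5a1 difference was not tested.

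**Figure D4:**
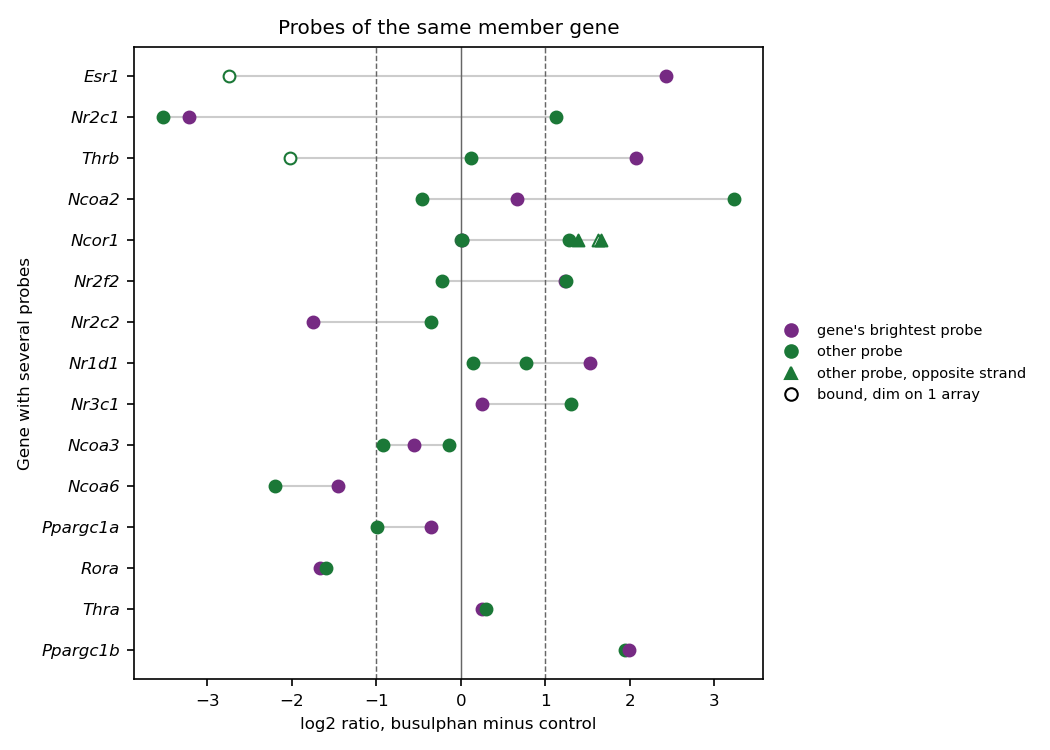
log2 ratio (busulphan minus control) of every probe compared for 15 of the 16 members with several probes, with the brightest probe in purple, triangles for Ncor1 probes on the opposite strand and open symbols for bounds. Probes of Esr1, Nr2c1, Thrb and Ncoa2 lie on both sides of 0, while those of Ppargc1b, Thra and Rora coincide closely.

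Of the coactivators 1 was higher, 2 were lower and 4 lay within 2-fold, while with spike-in scaling 1 was higher and 4 lower. Their median of -0.35 stayed below 0 under all scalings tried. Ncoa1, Ncoa2 and Ncoa3 are the p160 coactivators that bind liganded receptors directly. Ncoa1 had 406% in busulphan and 234% in control (log2 0.80), and it passed 2-fold only with quantile normalization. Ncoa2 depended on the probe. Its brightest gave 70.5% in busulphan and 44.6% in control (0.66), the junction probe 22.4% in busulphan and 30.7% in control (-0.46), and a probe at chr1:13129921-13129980 gave 131% in busulphan and 13.9% in control (3.24). Ncoa3 had 178% in busulphan and 261% in control (-0.55), and its other probes gave -0.92 (the junction probe) and -0.14. Ncoa4, which carries ferritin to the lysosome, had 25.8% in busulphan and 148% in control (-2.52, 5.74-fold), lower under all alternatives. Ncoa6, a scaffold of a histone methyltransferase complex, had 414% in busulphan and 1134% in control (-1.45), with 20.9% in busulphan and 95.8% in control by its second probe (-2.20), and quantile normalization put it within 2-fold (-0.89).

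The PGC-1 coactivators, which switch on mitochondrial genes together with ERR and PPAR proteins, differed from each other in these libraries. Ppargc1b had 44.5% in busulphan and 11.2% in control (1.99), and its second probe gave almost the same ratio (1.95). Ppargc1a had 12.9% in busulphan and 16.5% in control (-0.35), with 4.72% in busulphan and 9.38% in control by its other probe (-0.99).

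The corepressor Ncor1, a scaffold that brings histone deacetylase to unliganded receptors, had 437% in busulphan and 431% in control (0.02) by the junction probe. The other RefSeq-designed Ncor1 probes gave 258% in busulphan and 254% in control (0.02), and 60.2% in busulphan and 60.3% in control (-0.00). These 3 probes span 101.7 kb of chromosome 11. All 4 probes of Ncor1 that were designed on cDNA clones were higher, at 1.28 for the one on the gene's strand and at 1.39, 1.66 and at least 1.62 for the 3 on the opposite strand. The clone probes were dim, from 2.20% to 18.1% in busulphan. The median over all Ncor1 probes, which counts the 3 on the opposite strand, was 1.28.

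Partners of the coregulators that the name pattern does not take were spread widely. Of 23 compared 5 were higher and 7 lower. The median was -0.54, and 0.22 with quantile normalization, and with spike-in scaling 2 were higher and 12 lower. Tbl1x and Tbl1xr1 are closely related subunits of the Ncor complex and stood at opposite ends of the list. Tbl1x had 125% in busulphan and 14.4% in control (3.12), and Tbl1xr1 had 32.8% in busulphan and 222% in control (-2.76). Nrip1, the ligand-dependent corepressor RIP140, had 238% in busulphan and 52.0% in control (2.20), and Trim24, a chromatin-reading coregulator, had 339% in busulphan and 1901% in control (-2.49). Hdac3, the deacetylase of the Ncor complex, was singled out after its value was seen and had 290.1% in busulphan and 213% in control (0.45).

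Other nuclear receptors, outside the name pattern, were mostly within 2-fold, with 2 of 12 higher and 1 lower. When spike-ins set the scale 1 was higher and 3 lower, and the median of 0.66 became -0.20. Nr4a2, an early-response orphan receptor, had 196% in busulphan and 67.8% in control (1.53), and its relative Nr4a3 had 1.49% in busulphan and 5.61% in control (-1.91). The common dimer partners Rxra and Rxrb, singled out after their values were seen, had 118% in busulphan and 75.6% in control (0.64) and 127% in busulphan and 77.1% in control (0.72).

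**Figure D5:**
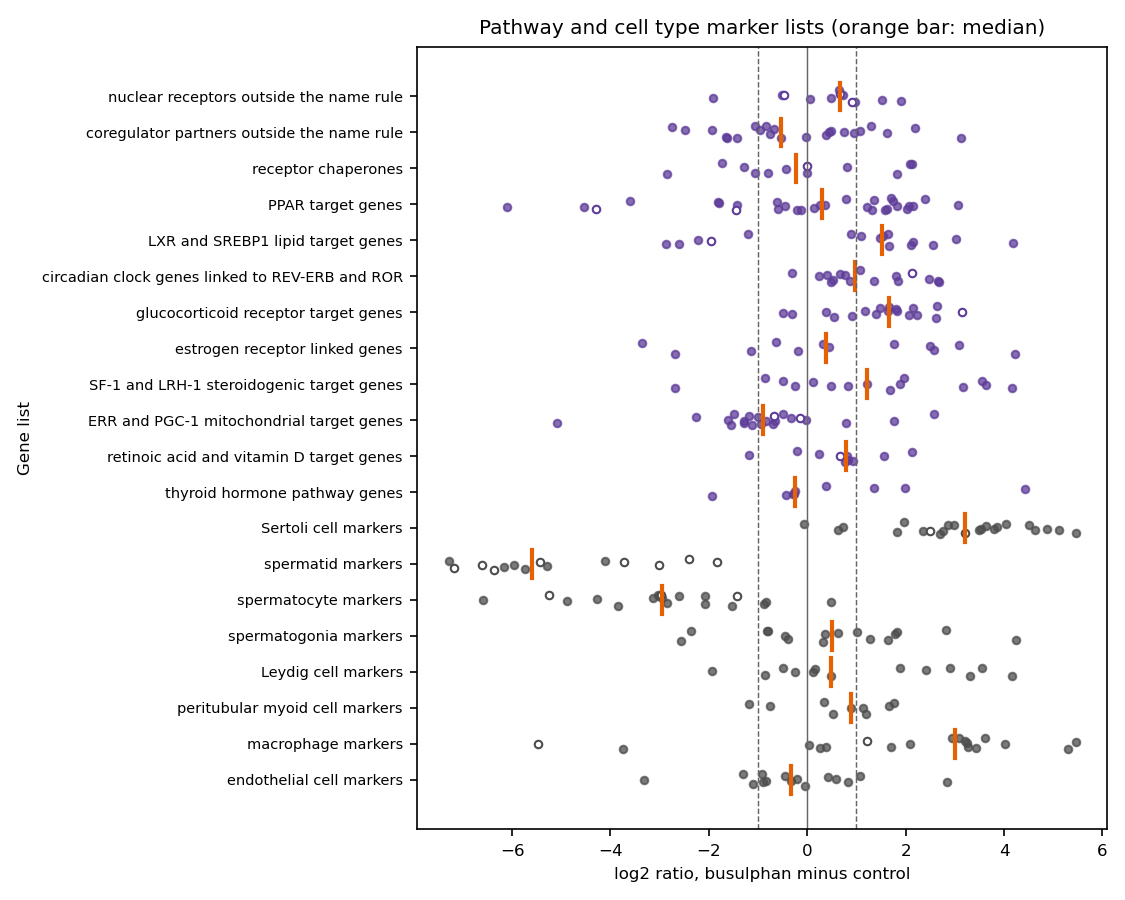
log2 ratio (busulphan minus control) of the genes of each pathway list (purple) and each cell type marker list (grey), with an orange bar at the list's median, open points for bounds and dashed lines at 2-fold. Spermatid markers sit lowest with a median of -5.59 and Sertoli cell markers highest with 3.20, and the pathway lists lie between.

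Several of the largest differences among the receptors were seen in single probes. Of the 16 members with more than 1 probe compared, 10 had probes of 1 sign and 7 had probes that all fell in the same class of higher, lower or within 2-fold. The median distance between the highest and lowest probe of a gene was 1.22 for these members and 0.81 over all 2646 genes with several probes. Without the 9 members whose probes fell in different classes, an alternative added after seeing the data, 13 of 31 were higher and 8 lower. Over all genes 31.3% were higher and 29.5% lower. Vdr, Nr0b1, Nr5a1 and Nr6a1 each have 1 probe. Of the 40 members, 10 were under 10% of the 75th percentile on both arrays, where spots lie closer to background.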

How the data were processed

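Total RNA of 1 busulphan and 1 control preparation was labelled with Cy3 and hybridised to 1 Agilent array each. The deposited intensity values are processed signals, background-subtracted, per the file headers, by Feature Extraction 11.5.1.1. The deposited log2 table equals log2 of that signal minus a constant per array, found by comparison, and served as an alternative. Member probes kept the gene name of the files, and the accessions of 65 of the 75 were also found in RefSeq. Other probes took the symbol of their accession in RefSeq, otherwise the name in the files. Values here were log2 signal minus the array's 75th percentile over non-control probes (Python 3.11.15, numpy 2.4.6). The 4 outlier probes were left out. A probe not well above background on 1 array gives a bound against the lowest signal that was. A gene took its brightest probe, and 2-fold was the rule of size, with no test. normexp (offset 50) used limma 3.58.1. Alternatives were other scalings, background correction, filters, probe summaries and thresholds. The code behind the calls was checked on simulated spot error, which gives the calls no error rate between preparations. Compared members and, per list, up to the 2 highest and 2 lowest genes measured on both arrays without saturation are named; some genes this takes are counted but not reported here. Members and lists were chosen with earlier results of these data known.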

Additional observations from a re-analysis of the deposited data

How the results depend on the processing

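The 17 higher and 10 lower members became 8 and 15 with spike-in scaling (all genes 16.1% and 46.4%), 6 and 4 at a 4-fold threshold (all genes 14.4% and 17.7%), and 27 and 15 of 67 when every probe was its own feature (all probes 31.6% and 29.03%). The median of 0.27 was 0.52 with quantile normalization, 0.064 with no scaling, -0.087 with housekeeping scaling and -0.43 with spike-in scaling. Under the other alternatives 12 (normexp) to 20 (no filter on dim probes) members were higher and 8 to 11 lower, with medians from 0.10 to 0.46. Of all genes, 24.6% were higher and 22.7% lower with normexp. With no filter, which also takes in members dim on both arrays, 28.4% of 11139 genes were higher and 29.0% lower. Of 27 members called, 13 kept their call under all 13 alternatives that give 1 value per gene, 6 of 17 higher, among them Vdr, Nr0b1, Nr5a1 and Ppargc1b, and 7 of 10 lower, Nr2c1, Nr6a1, Ncoa4, Nr1h3, Nr2c2, Rora and Nr1i3. Of 518 single-gene values recomputed, 136 moved by more than the software error and 1 changed sign among called genes, Esr1, at -0.15 with the median over its probes. For these results the cause was not tested. No paired analysis was possible because each group has 1 array. Preparation, labelling and array cannot be told apart from treatment, and dim spots limit the folds of 10 members.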

Other observations

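Chaperones that hold steroid receptors ready for ligand were 3 higher and 4 lower of 12 compared, with a median log2 ratio of -0.22 that turned to 0.16 under another scaling. The heat shock proteins Hspa8 (5789% in busulphan and 1323% in control, 2.13) and Hsp90ab1 (3862% in busulphan and 909.6% in control, 2.09) were highest. The cochaperone Bag1 had 251% in busulphan and 1803% in control (-2.85), and Dnajb1 had 1841% in busulphan and 6128% in control (-1.73, with -2.89 by its other probe).

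The 53 member promoters counted from RefSeq's table, which leave out members on chromosome 18, were read on both strands. In them the GC box GGGCGG was in 35.8% against 35.7% of all promoters and the E-box CACGTG in 7.55% against 7.15%. The cAMP response element TGACGTCA was in 2 member promoters (3.77%, against 1.79% of all). The extended half-site CAAGGTCA, the form known for SF-1 and estrogen-related receptors, was in none of the 53, against 1.56% of all.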
